A study of Mus musculus with 6 samples.

Results

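The genes described here are 10 small IFI proteins and interferon-induced regulators, namely Ifi27, Ifi27l2a, Ifi35, Nmi, Ifi44, Ifi44l, Rtp4, Xaf1, Epsti1 and Daxx. They were taken by symbol from a deposited table of 78298 genes, and all 10 were among the 15522 genes kept after a filter on low counts. The samples were RENCA cells, an established mouse renal adenocarcinoma line, transduced with a lentivirus that carried the mouse Aqp1 coding sequence under the ubiquitin C promoter (oe-AQP1, n = 3) or with the empty vector (oe-NC, n = 3). Both vectors carried puromycin resistance, and selection of both populations began 48 h after transduction, with 2 μg/mL of puromycin over 14 days. No untransduced RENCA sample was analysed here, and both groups share the viral backbone and the selection. The labels place all 6 samples in batch 1. The series text calls the samples of a group biological replicates. The paper describes a stable oe-AQP1 line and does not say whether the samples of a group came from separate transductions. The tests below therefore rest on the spread between samples and not on a known spread between transductions. Effects of the transgene cannot be told apart from other differences between the transduced populations.

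Type I interferons bind a cell-surface receptor whose Janus kinases activate transcription factors of the cytoplasm. Together with IRF9 these bind response elements at target promoters, and a large set of interferon-stimulated genes is transcribed. Many of the products act on viruses directly, whereas the genes described here are better known as small membrane proteins, scaffolds and regulators of signaling, trafficking, chromatin and cell death. Several are held at a low constant level in resting cells and rise when interferon is present.

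Read counts were estimated per gene from paired-end libraries, with a total of 18385714 to 21920899 expected counts per sample. Values are given as CPM, the counts per 1000000 counts of the kept genes, adjusted by TMM factors between 0.993 and 1.01. All 15522 genes were fitted together by limma-voom. The log2FC is the level in oe-AQP1 relative to oe-NC cells on a log2 scale, and FDR is the p-value after Benjamini-Hochberg adjustment over these genes. Aqp1 itself had 381 to 390 CPM in the oe-AQP1 samples and 1.37 to 2.11 CPM in the oe-NC samples, in keeping with the labels. Of 8 renal epithelial tumor markers, Pax8, Pax2, Krt8, Krt18 and Vim had means of 44.9 CPM or more in both groups. Epcam had no count in any sample, while Cdh1 (3.75 and 2.05 CPM in oe-NC and oe-AQP1 cells) and Krt19 (1.09 and 0.532 CPM) were low. Of the 7 tested, 5 were lower in oe-AQP1 cells and none was higher by limma-voom, namely Krt8 (log2FC -0.41), Krt18 (-0.27), Vim (-0.40), Krt19 (-0.97) and Cdh1 (-0.86), and the summed level of the 8 was 1352 to 1371 CPM in oe-AQP1 and 1645 to 1835 CPM in oe-NC samples. Of 16 markers of leukocytes and endothelium, 9 had at most 3 counts in every sample and 3 of these, Adgre1, Siglech and Kdr, had none. Of the 5 tested, Csf1r (9.44 CPM in oe-NC and 3.29 CPM in oe-AQP1 cells, log2FC -1.51) and Lyz2 (17.1 and 11.9 CPM, log2FC -0.52) were lower by limma-voom, and Cd14 (12.9 and 11.47 CPM), Cd79a and Pecam1 did not pass the test. The summed level of the 16 was lower in oe-AQP1 samples (29.1 to 29.3 CPM) than in oe-NC samples (41.5 to 42.4 CPM). Among all genes tested, 16.6% were lower and 16.0% higher at the same FDR threshold of 0.05. The part of either marker list in the results below was not tested. oe-NC sample 1 stood apart from the other oe-NC samples, with 9.54 and 11.1 for the chi-square per gene against them, where the other pairs within a group had 1.71 to 2.04. It had the lowest level of the oe-NC samples for 7 of the 10 genes, and all 10 genes kept their call without it.

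With an FDR threshold of 0.05, oe-AQP1 cells had higher levels of 9 of the 10 genes and a lower level of 1, against 16.0% higher and 16.6% lower among all genes tested. All 10 also passed the fold threshold of the study (absolute log2FC above 1), which 4.39% of all genes passed upward and 0.844% downward. In all 10 the samples of the groups did not overlap, as was the case for 23.5% of all genes upward and 23.8% downward. The median log2FC of the 10 genes was 1.74, and that of all genes tested was 0.00. The gene that fell was Ifi27. Among the 9 that rose, Epsti1 passed the filter on low counts through its oe-AQP1 samples alone, so its call is not independent of the filter. Under a stricter filter, which Epsti1 did not pass, 8 genes were higher and 1 lower. Whether the differences arose in every cell or in a share of the cells cannot be told apart in bulk RNA. The exact two-sided permutation test of each single gene reached its floor of p = 0.1, given 3 samples in each group.

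**Figure D1:**
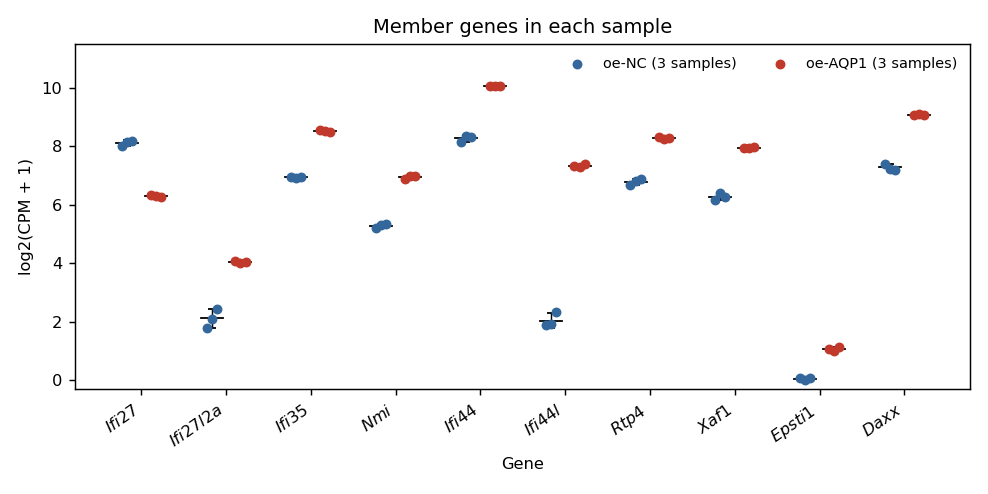
Level of each of the 10 genes in each sample as log2(CPM + 1); blue points are oe-NC and red points oe-AQP1 samples, horizontal bars are group means and error bars are SD (n = 3). In 9 genes the 3 oe-AQP1 samples lie above the 3 oe-NC samples, and in Ifi27 they lie below.

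Ifi27 and Ifi27l2a encode short hydrophobic proteins of the ISG12 family, which are induced by type I interferon and reside in mitochondrial or nuclear membranes. Ifi27 (ENSMUSG00000064215; chromosome 12, 103392254 to 103407799, forward strand, GRCm39) had 256, 284 and 288 CPM in oe-NC samples 1 to 3 and 79.7, 77.2 and 75.6 CPM in oe-AQP1 samples 1 to 3. Every oe-AQP1 sample was thus less than every oe-NC sample, and the lowest oe-NC sample was 3.22-fold above the highest oe-AQP1 sample. Ifi27 fell 3.56-fold (95% interval 3.28 to 3.87; log2FC = -1.83, standard error 0.05, FDR = 1.98e-09 by limma-voom). It ranked 32 from the bottom of all 15522 genes by log2FC. The means of 276 ± 17.2 CPM (SD, n = 3) in oe-NC and 77.5 ± 2.06 CPM (SD, n = 3) in oe-AQP1 cells show that the decrease was from a well-expressed state and did not rest on few reads.

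Ifi27l2a (ENSMUSG00000079017; chromosome 12, 103399975 to 103409950, reverse strand) moved the opposite way. It had 2.50, 3.28 and 4.46 CPM in the oe-NC samples and 15.9, 14.96 and 15.5 CPM in the oe-AQP1 samples. The oe-NC samples, with 49, 60 and 95 counts, were more spread (coefficient of variation 28.9%) than the oe-AQP1 samples (3.14%). The increase was 4.59-fold (95% interval 3.57 to 5.89; log2FC = 2.20, standard error 0.16, FDR = 3.97e-06). The third gene of the cluster, Ifi27l2b, had at most 2 counts in any sample and was not tested.

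The genes Ifi27 and Ifi27l2a overlap tail to tail on opposite strands of chromosome 12 over 7825 bases. Their annotated exons share 163 bases, which is 3.65% of all exonic bases of Ifi27 and 15.02% of those of Ifi27l2a, the gene with far fewer reads. Of these, 134 lie in the canonical transcript of Ifi27, and none in that of Ifi27l2a. The use of strand in counting is not given in the sources used here, so reads from the shared bases cannot be assigned to one gene or the other. All expected counts of both genes were whole numbers. The next tested protein-coding gene on the Ifi27 side, Ddx24, which encodes an RNA helicase, begins 95 bases away on the reverse strand and was 0.43 higher on the log2 scale (standard error 0.04, FDR = 8.50e-06).

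**Figure D2:**
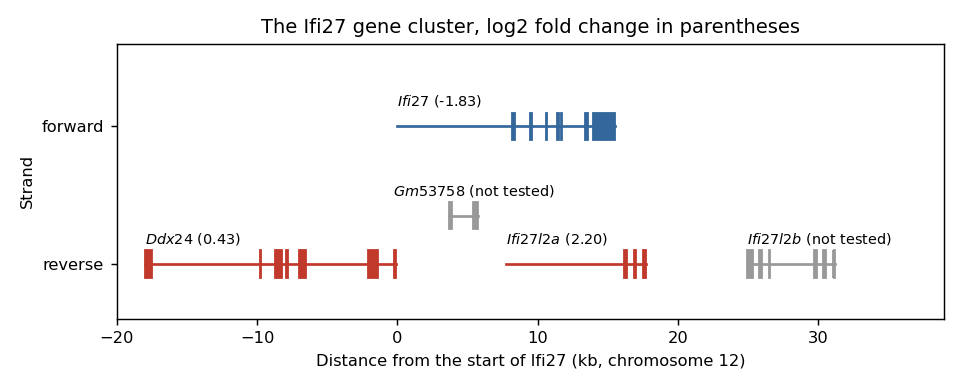
Map of the Ifi27 cluster by distance in kb from the start of Ifi27, with a line for each gene's span and boxes for the exons of its canonical transcript; genes are red where higher in oe-AQP1 cells and blue where lower at an FDR under 0.05, and gray where not tested. Genes with no read or of the annotation class TEC are not drawn. Ifi27 (-1.83) and Ifi27l2a (2.20) changed in opposite directions from overlapping spans.

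Related genes were also compared within each sample, as differences on the log2(CPM + 1) scale. The added 1 CPM shrinks differences that involve genes of few CPM, so the shift without it is given as well, an alternative chosen after seeing the data. The difference of Ifi27l2a minus Ifi27 was -6.20, -6.06 and -5.73 log2 units in the oe-NC samples and -2.25, -2.29 and -2.22 log2 units in the oe-AQP1 samples. The difference moved by 3.74 between the groups on this scale, toward Ifi27l2a and with no overlap (exact two-sided permutation test, p = 0.1, the smallest possible). Without the added CPM it moved by 4.05 log2 units, a 16.6-fold change of the ratio, also with no overlap. Ifi27 was the more abundant transcript in CPM in all 6 samples. Per kilobase of canonical transcript, which is shorter for Ifi27l2a, Ifi27 was still the higher in oe-NC cells. In oe-AQP1 cells the samples of the genes overlapped on this scale. The level of Ifi27 was 115 ± 7.17 against 7.20 ± 2.08 RPKM (SD, n = 3) for Ifi27l2a in oe-NC cells, and 32.3 ± 0.857 against 32.6 ± 1.02 RPKM (SD, n = 3) in oe-AQP1 cells, where the means of both genes lay within 1 SD of each other. The order of these means depended on the length taken. In oe-AQP1 cells Ifi27l2a ranked 8 and Ifi27 ranked 9 by canonical transcript, and the ranks were exchanged over all annotated exons. The overlap is given for the canonical length only.

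Ifi44 and Ifi44l are adjacent genes on the reverse strand of chromosome 3, with 8748 bases between them. They encode related cytoplasmic proteins with a guanine nucleotide-binding motif, and both proteins bind the co-chaperone FKBP5. Ifi44 (ENSMUSG00000028037; 151436559 to 151455625, GRCm39) had 282, 325 and 321 CPM in the oe-NC samples and 1081, 1071 and 1082 CPM in the oe-AQP1 samples, the highest CPM of the 10 genes. The oe-AQP1 samples had a coefficient of variation of 0.541%, whereas oe-NC sample 1 lay below the other 2. The increase was 3.49-fold (95% interval 3.24 to 3.77; log2FC = 1.80, standard error 0.05, FDR = 1.13e-09).

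Ifi44l (ENSMUSG00000039146; 151464374 to 151468529) was close to silent in oe-NC cells, with 53, 51 and 86 counts or 2.70, 2.79 and 4.03 CPM. In the oe-AQP1 samples it had 3170, 3451 and 3424 counts, or 160, 157 and 167 CPM. The rise was 50.7-fold (95% interval 40.9 to 62.9; log2FC = 5.67, standard error 0.14, FDR = 5.04e-10), and Ifi44l ranked 7 of all 15522 genes by log2FC. The difference of Ifi44l minus Ifi44 was -6.26, -6.43 and -5.999 log2 units in the oe-NC samples and -2.75, -2.76 and -2.69 log2 units in the oe-AQP1 samples. The pair shifted by 3.49 on this scale toward Ifi44l (exact two-sided permutation test, p = 0.1, the smallest possible), and by 3.89 log2 units, a 14.8-fold change of the ratio, without the added CPM. Both genes rose, and Ifi44l, with little transcript in control cells, rose more in fold but less in CPM.

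Ifi35 and Nmi encode partner proteins that share a domain and form a complex in interferon-treated cells, where they modulate innate immune signaling. Nmi was first described as a binding partner of N-Myc and of STAT proteins. Ifi35 (ENSMUSG00000010358; chromosome 11, 101339221 to 101352693, forward strand) had 122, 119 and 124 CPM in the oe-NC samples and 372, 365 and 361 CPM in the oe-AQP1 samples. Its rise was 3.01-fold (95% interval 2.84 to 3.18; log2FC = 1.59, standard error 0.04, FDR = 2.97e-10). Ifi35 shares 620 exonic bases with Vat1 on the opposite strand, which was lower in oe-AQP1 cells (log2FC = -0.58, FDR = 1.57e-05), so reads from those bases cannot be told apart without strand. Nmi (ENSMUSG00000026946; chromosome 2, 51838450 to 51863506, reverse strand), whose exons overlap no other gene, had 36.4, 38.8 and 39.7 CPM in the oe-NC samples and 117, 125 and 126 CPM in the oe-AQP1 samples. It was 3.21-fold higher (95% interval 2.96 to 3.48; log2FC = 1.68, standard error 0.05, FDR = 3.86e-09).

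Unlike the other pairs, the ratio of Ifi35 to Nmi stayed within a narrow range. Ifi35 lay 1.72, 1.59 and 1.62 log2 units above Nmi in the oe-NC samples and 1.66, 1.54 and 1.51 log2 units above it in the oe-AQP1 samples. The groups overlapped, and their means differed by -0.08 log2 units (exact two-sided permutation test, p = 0.3). With 3 samples a group this does not show that the partners moved alike, only that a shift was not seen beyond the spread of 0.08 (SD, oe-AQP1) and 0.07 (SD, oe-NC).

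**Figure D3:**
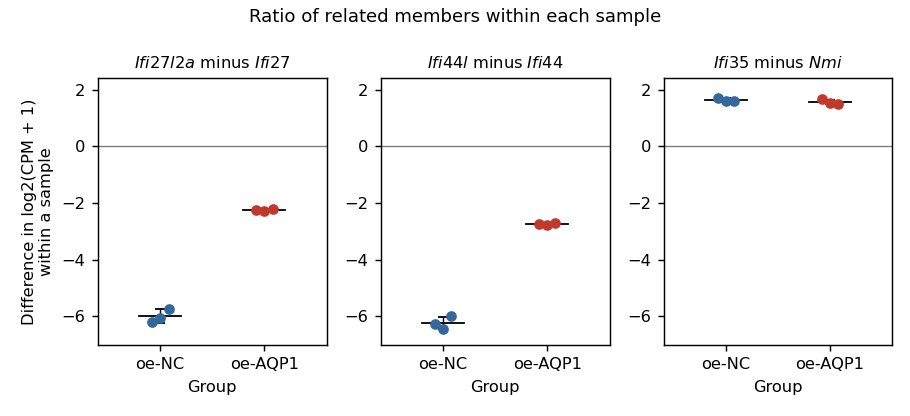
Difference between 2 related genes within each sample on the log2(CPM + 1) scale; points are samples, horizontal bars are means and error bars SD (n = 3 per group). The differences of Ifi27l2a minus Ifi27 and of Ifi44l minus Ifi44 shifted by 3.74 and 3.49 on this scale, whereas the Ifi35 to Nmi values of the groups overlap.

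Rtp4 encodes a receptor transporter that helps G protein-coupled receptors reach the cell surface. Rtp4 (ENSMUSG00000033355; chromosome 16, 23337811 to 23432972, forward strand) had 101, 111 and 118 CPM in the oe-NC samples and 316, 303 and 308 CPM in the oe-AQP1 samples. The increase of 2.82-fold (95% interval 2.59 to 3.06; log2FC = 1.49, standard error 0.05, FDR = 1.02e-08) was the least among the 9 genes that rose. Its other family members were nearly unread, with at most 4 counts in any sample for Rtp3, 1 for Rtp1 and 0 for Rtp2. Rtp4 shares 1129 exonic bases, 26.6% of its own, with Gm45338, a long noncoding RNA gene on the same strand. None of these lie in the canonical Rtp4 transcript, and Gm45338 had at most 46.9 counts in any sample.

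Xaf1 and Daxx are regulators of cell death and chromatin. Xaf1 encodes XIAP-associated factor 1, which antagonizes the caspase inhibitor XIAP. Xaf1 (ENSMUSG00000040483; chromosome 11, 72192397 to 72204559, forward strand) had 71.3, 83.2 and 75.3 CPM in the oe-NC samples and 243, 244 and 251 CPM in the oe-AQP1 samples. The groups did not overlap, and the rise was 3.22-fold (95% interval 2.97 to 3.49; log2FC = 1.69, standard error 0.05, FDR = 3.78e-09). Xiap had 47.8 CPM in oe-NC and 52.2 CPM in oe-AQP1 cells and did not pass the test (log2FC = 0.13, FDR = 0.175).

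Daxx encodes a chaperone that deposits histone H3.3 together with ATRX and resides in PML nuclear bodies. Daxx (ENSMUSG00000002307; chromosome 17, 34128384 to 34134564, forward strand) had 169, 149 and 146 CPM in the oe-NC samples and 534, 544 and 538 CPM in the oe-AQP1 samples. It was 3.49-fold higher (95% interval 3.22 to 3.78; log2FC = 1.80, standard error 0.05, FDR = 1.67e-09). Daxx shares 445 exonic bases, 11.2% of its own, with BC051226 on the opposite strand, which had at most 343 counts in any sample. Unlike most of the genes, Daxx was highest in oe-NC sample 1 among the control samples. The expected counts of Rtp4, Xaf1 and Daxx included fractions, which arise when a read is divided among genes, and those of the other 7 genes were whole.

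Epsti1 encodes a protein first found in epithelial cells in contact with stromal cells. Epsti1 (ENSMUSG00000022014; chromosome 14, 78112017 to 78240097, forward strand) had 1, 0 and 1 counts in the oe-NC samples and 22, 22 and 25 counts in the oe-AQP1 samples. At this depth the ratio of summed counts scaled by library size was 32.8, with an exact 95% counting interval of 8.74 to 276. The limma-voom log2FC was 4.42 (standard error 0.44, FDR = 3.70e-05), a value that depends on the small count the method adds. Epsti1 was therefore higher in every oe-AQP1 sample, at a level near 1.11 CPM, and the size of its change is not well determined. Its exons share 344 bases with Gm63478 on the opposite strand, which had at most 1 count in any sample.

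The fold changes of 6 of the genes that rose lay close together, in the order Rtp4 (1.49), Ifi35 (1.59), Nmi (1.68), Xaf1 (1.69), Daxx (1.80) and Ifi44 (1.80), all as log2FC. The 95% intervals of neighbors in this order overlapped. Those of Rtp4 (1.38 to 1.61) and Daxx (1.69 to 1.92), at its lower and upper part, did not. Ifi27l2a (1.84 to 2.56) overlapped with Ifi44, and Epsti1 and Ifi44l stood above. In oe-NC cells Ifi44l and Ifi27l2a had means of 3.18 and 3.41 CPM, and the 6 genes with smaller fold increases had means of 38.3 to 309 CPM. The oe-NC level is also the denominator of the fold, so level and fold are not independent. Epsti1 passed the filter on low counts through its oe-AQP1 samples alone, so its low oe-NC level and large increase are not independent of the filter. Ifi27, with a mean of 276 CPM, was among the more highly expressed genes in oe-NC cells and fell.

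**Figure D4:**
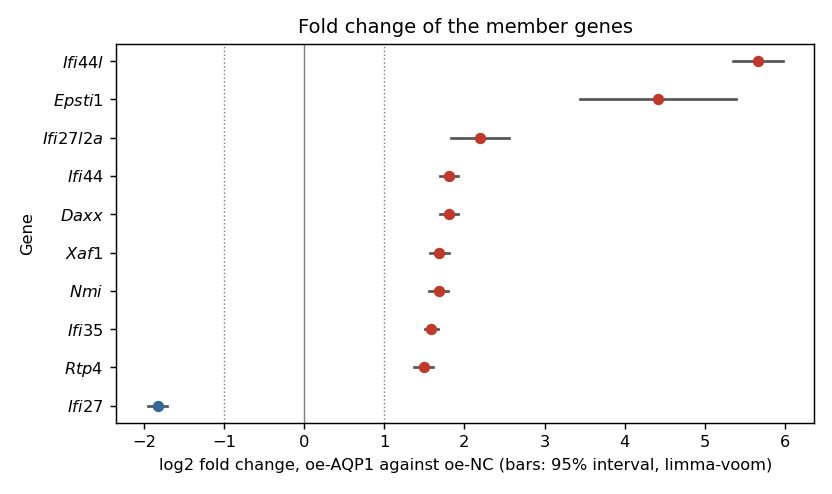
log2 fold change of each gene, oe-AQP1 against oe-NC, with 95% intervals from limma-voom; dotted lines mark the fold threshold of 1 on either side of 0. Of the 9 genes above 0, 6 lie between 1.49 and 1.80, Ifi44l reaches 5.67, and Ifi27 is at -1.83; the value of Epsti1 rests on few reads.

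Levels can be compared between genes only per length, here as RPKM on the canonical GENCODE transcript. In oe-NC cells Ifi27 ranked 1 of the 10 genes (115 ± 7.17 RPKM), followed by Ifi44 (105 ± 8.18 RPKM), whose samples overlapped with those of Ifi27. Ifi35 (89.4 ± 1.86), Rtp4 (68.8 ± 5.33) and Daxx (60.0 ± 4.96 RPKM) came next, and the samples of Rtp4 and Daxx overlapped. Xaf1 (28.8 ± 2.30) and Nmi (27.1 ± 1.21 RPKM) did not differ beyond their spread, and Ifi44l was at 2.31 ± 0.542 RPKM (all SD, n = 3). In oe-AQP1 cells the order began with Ifi44 (367 ± 1.99), Ifi35 (269 ± 3.98), Daxx (209 ± 1.90), Rtp4 (194 ± 3.98) and Ifi44l (117 ± 3.53 RPKM), and Ifi27 had moved to rank 9 (all SD, n = 3). Taken over all annotated exons in place of the canonical transcript, Ifi27 ranked 1 in oe-NC and 8 in oe-AQP1 cells. The order of other genes depended on this choice of length. Over all exons Daxx ranked 3 in oe-NC and 2 in oe-AQP1 cells, and Ifi35 ranked 4 in both. Ifi44l ranked 3 in oe-AQP1 cells.

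Promoter sequences were available here for 7 of the 10 genes, from 250 bases before to 50 bases after the start of the transcript (RefSeq, GRCm38.p6), and those of Ifi27, Ifi27l2a and Rtp4 were not used here. The promoters were searched on both strands for AAANNGAAA, a relaxed core of the interferon-stimulated response element, and for the stricter core in which a G precedes these letters, whose every match also holds the relaxed one. None of the 7 genes held the stricter core, which occurs in 3.99% of all 27025 genes of the table and in 14 of the 24 canonical interferon-stimulated genes found there. The relaxed core was found in Ifi44, Ifi44l and Xaf1, that is 3 of 7 genes, against 12.1% of all genes and 18 of 24 canonical interferon-stimulated genes. The 3 promoters with the relaxed core are shown 5′ to 3′ along the coding strand, which reads as the transcript does, with its match on the opposite strand in capitals.
Ifi44, chr3:151749861-151750160, reverse strand: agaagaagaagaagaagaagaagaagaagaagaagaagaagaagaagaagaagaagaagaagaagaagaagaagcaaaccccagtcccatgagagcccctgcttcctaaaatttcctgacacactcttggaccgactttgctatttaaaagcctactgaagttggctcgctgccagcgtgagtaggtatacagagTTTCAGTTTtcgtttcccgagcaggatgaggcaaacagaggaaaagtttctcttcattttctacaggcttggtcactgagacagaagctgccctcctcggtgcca
Ifi44l, chr3:151762842-151763141, reverse strand: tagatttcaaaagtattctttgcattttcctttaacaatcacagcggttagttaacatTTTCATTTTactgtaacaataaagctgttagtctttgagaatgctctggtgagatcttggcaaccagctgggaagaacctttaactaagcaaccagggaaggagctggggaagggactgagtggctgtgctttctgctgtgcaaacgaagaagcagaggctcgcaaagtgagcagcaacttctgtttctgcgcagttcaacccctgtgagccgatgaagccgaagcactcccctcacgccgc
Xaf1, chr11:72301379-72301678, forward strand: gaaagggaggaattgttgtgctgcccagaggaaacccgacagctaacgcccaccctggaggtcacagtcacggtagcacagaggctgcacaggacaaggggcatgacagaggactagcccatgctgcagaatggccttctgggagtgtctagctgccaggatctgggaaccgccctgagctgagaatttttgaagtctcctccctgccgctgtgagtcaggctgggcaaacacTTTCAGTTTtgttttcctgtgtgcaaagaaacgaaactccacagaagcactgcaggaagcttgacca
In Ifi44 and Xaf1 the same 9 letters, TTTCAGTTT, begin 55 and 17 bases before the start on the coding strand, and in Ifi44l the match begins at position -192. The motifs were chosen with results of these data known. A match of letters is a description and not a bound site.

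The 10 genes were next set beside other genes of the interferon pathway. Of 30 canonical interferon-stimulated genes, among them Isg15, Mx1 and the Ifit and Oas genes, all 30 passed both thresholds upward. Their median log2FC was 2.12, with extremes at Mx1 (5.91) and Adar (1.03), so that Ifi27 was outside the range of this list. Of 13 genes of interferon signaling 9 were higher and 1 lower, against 16.0% higher and 16.6% lower among all genes tested, with a median log2FC of 0.77. Irf7, a transcription factor that amplifies the response, was the highest (log2FC = 1.97, FDR = 3.45e-11), and Stat2 (1.97) and Usp18 (1.74) also rose. Jak1 was the lowest at a log2FC of -0.11 (FDR = 0.0457), a call that was lost in 10 of 16 alternative fits, with an FDR of 0.05001 by edgeR and 0.113 by DESeq2. Of the receptor chains, Ifnar1 (-0.08, FDR = 0.240) did not pass the test, and Ifnar2 was higher (log2FC = 0.27, FDR = 0.00134). The lists were chosen with results of these data known.

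**Figure D5:**
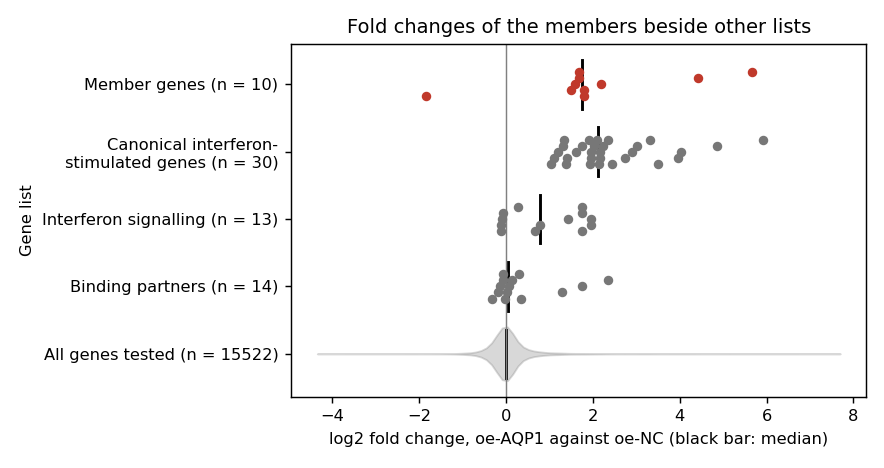
log2 fold changes of the 10 genes beside 3 other lists and all 15522 genes tested; points are genes, the gray shape is the distribution over all genes, and black bars are medians. The 30 canonical interferon-stimulated genes lie between 1.03 and 5.91 (Adar and Mx1), a range that holds 9 of the 10 genes and not Ifi27.

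Binding partners of the encoded proteins were described in the same way. Of 15 partners 14 were tested, since Mycn had no count in any sample. Of these 5 rose and 3 fell past the FDR threshold, against 16.0% higher and 16.6% lower among all genes tested. Their median log2FC was 0.05. The increases past a log2FC of 1 included those of Sp100 (2.35) and Pml (1.30), which form nuclear bodies with Daxx. H3f3b (0.34), which encodes histone H3.3, and Myc (0.30) were higher by less. Atrx, which acts with Daxx on H3.3, had 100 CPM in oe-NC and 102 CPM in oe-AQP1 cells (log2FC = 0.02, FDR = 0.776), and H3f3a had a log2FC of -0.07 (FDR = 0.338). The partners Usp7 (-0.15), Spop (-0.19) and Map3k5 (-0.33) of Daxx were lower. Fkbp5, the partner of Ifi44 and Ifi44l, did not pass the test (log2FC = -0.02, FDR = 0.745), nor did Stat5a (-0.06) and Stat5b (0.07). Pml, Sp100 and Daxx were thus all higher in oe-AQP1 cells, whereas the transcripts of Xiap, Atrx and Fkbp5 did not pass the test. A link between these changes was not tested.

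The chromosomal neighbors of the 10 genes gave a further comparison. On either side of each gene the nearest tested protein-coding gene outside the 10 was taken, which left 16 different genes. Of these 4 rose and 3 fell past the FDR threshold, against 16.0% higher and 16.6% lower among all genes tested. Their median log2FC was 0.01. Those past the fold threshold were Tapbp (1.46), which encodes the peptide-loading protein tapasin and lies 309 bases from Daxx, Smim40 (1.34) on the other side of Daxx, and Rbm43 (1.39) beside Nmi. Smim40 had few reads, with means of 0.577 CPM in oe-NC and 1.44 CPM in oe-AQP1 cells (standard error of the log2FC 0.29). Around Ifi44 and Ifi44l the nearest such genes were far away, Adgrl2 at 2740330 bases from Ifi44 and Gipc2 at 330641 bases from Ifi44l. Neither passed the test (log2FC of 0.06 and -0.17).

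The mean profile of the 10 genes over the 6 samples, on a log2 CPM scale centered per gene, was most closely matched by Ifih1 (Euclidean distance 0.0902), the lncRNA Gm57169 (0.0964) and Slfn2 (0.106). Ifih1 encodes the cytosolic RNA sensor MDA5. Its log2FC was 1.96, and those of Gm57169 and Slfn2 were 1.90 and 1.86. The centered profile lay between 0.94 and 0.98 in the oe-AQP1 samples and between -1.04 and -0.85 in the oe-NC samples, so that likeness over these 6 points mostly reflects the size of the group difference.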

How the data were processed

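The authors prepared TruSeq libraries from total RNA of 6 RENCA samples, sequenced them paired-end, and deposited unscaled expected counts per gene for each sample (18385714.02 to 21920898.67 in total), with group means that were not used here. The study's methods name GRCm39, while the submitters' processing notes list fastp, HISAT2, featureCounts, Subread, GRCm38 and mm10. How reads were divided among genes and whether strand was used are not given in the sources used here. Gene positions are those of GENCODE M39 on GRCm39.

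Expected counts were rounded, filtered with filterByExpr and compared by limma-voom with TMM scaling, as in the study's methods (limma 3.58.1, edgeR 4.0.16, R 4.3.3). The study removed interferon-stimulated and viral defense genes from its lists to limit artifacts of transfection, and it retained inflammatory mediators relevant to cancer. The removed class was kept here, and whether its rise reflects such an artifact was not tested. RPKM values were computed from CPM and canonical transcript length. Single-gene and ratio tests were exact permutations over samples, with a pseudocount of 1 CPM. Named genes were the 10 members, Aqp1, the paralogs and binding partners (except 1 that, with a motif, is not reported here), the extremes of the other lists and the 3 nearest profiles. The other interferon signaling genes, markers and chromosomal neighbors named were chosen after their values were seen. The members and lists were chosen with earlier results of these data known. Alternative fits used the edgeR quasi-likelihood method, DESeq2 1.42.0, quality weights, 3 scalings, 2 filters, unrounded counts, a replicate block and the omission of each sample.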

Additional observations from a re-analysis of the deposited data

How the results depend on the processing

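All 10 genes kept their direction and an FDR under 0.05 under every alternative in which they were tested, 16 for each gene and 15 for Epsti1, which was lost when at least 10 counts were required in every sample (8 genes higher and 1 lower). The log2FC ranged over these alternatives from -1.89 to -1.80 for Ifi27, from 1.99 to 2.42 for Ifi27l2a, from 5.55 to 5.86 for Ifi44l and from 3.94 to 5.04 for Epsti1. The groups share sample numbers, but the deviations of same-numbered samples correlated between -0.0677 and 0.00911, so the numbers were not taken as pairs. The shift of Ifi27l2a against Ifi27 ranged from 3.64 to 4.05 and that of Ifi44l against Ifi44 from 3.39 to 3.89, both highest without a pseudocount, and with 0.5 CPM they were 3.88 and 3.68. With the replicate block 9 of the 10 genes were higher and 1 lower, as without it, and 2346 of all genes were higher and 2479 lower. The numbers of all genes past both thresholds depended on the filter, with 416 higher and 66 lower at 10 counts in every sample and 204 lower without a filter, against 681 and 131. The single lower gene of interferon signaling, Jak1, was called in 6 of 16 alternatives. The number was 0 with edgeR's quasi-likelihood test, DESeq2, library size scaling, the stricter filter and the replicate block, each with 1 lower at an unadjusted p under 0.05, and from 0 to 1 with a sample left out. Without oe-NC sample 1, 3125 genes were higher and 3331 lower, against 2481 and 2569. At these depths, changes of genes near 1 CPM are poorly sized.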
